A study of Mus musculus with 9 samples.

Results

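The interferon-inducible GTPases form several protein families of cell-autonomous immunity, and 10 of them were followed here: the immunity-related GTPases (IRGs) Irgm1, Irgm2, Igtp, Iigp1 and Tgtp1, the guanylate-binding proteins (GBPs) Gbp2, Gbp3 and Gbp6, and the Mx proteins Mx1 and Mx2. They were chosen by symbol, and with earlier results of the same arrays known, in which interferon-response genes were low in the re-derived lines. Their levels in those lines against embryonic stem cells are therefore given as a description, with no p-value. How many passed a threshold in these comparisons is counted only beside the share of all probe sets that did. Of the 10 symbols, 9 had a probe set (a group of array probes for 1 transcript) among the 28853 of the deposited table, matched by symbol or synonym, and where several matched the brightest was taken. Igtp had no probe set under its own name, and it has no value here. Irgm2 is called Iigp2 in the file, and Tgtp1 is called Tgtp.

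The symbol Gbp6 needs a warning. The probe set that the file calls Gbp6 carries an accession that the mouse GRCm38.p6 gene table gives to Gbp7, and it lies on chromosome 3 in the file, next to Gbp2 and Gbp3. It was the brighter of 2 matches and was therefore the one taken, and it is called Gbp7 from here on. The other, called Mpa2l in the file and placed on chromosome 5, has the accession of Gbp6 in that gene table and is described beside it.

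The study measured 3 groups of 3 arrays. All cells derived from C57BL/6×Oct4/EGFP transgenic OG2 mice, in which the Oct4 promoter drives green fluorescent protein in pluripotent cells, and all were grown on feeder cells. The strain label adds a cross with CBA whose running number differs in every sample. The embryonic stem cell (ESC) group is a line derived from blastocysts. The D5 and D10 groups are lines grown from green cells that were sorted from bone marrow of transplanted mice at day 5 and day 10, picked as colonies and expanded. The labels do not name the transplanted cells. The titles speak of lines and biological replicates, but 1 line is described for each group and no separate derivations are named, so that the spread between arrays may be that of cultures of 1 line or technical. D10 replicates 1 and 3 were almost identical and were counted as 1 sample. The standard deviation (SD) of their log2 difference was 0.0686, where the remaining 8 replicate pairs had 0.154 to 0.201. This leaves n = 2 for D10 and n = 3 for ESC and D5.

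Interferons act through cell surface receptors and the Janus kinases on transcription factors of the STAT family. With IRF9 these bind the interferon-stimulated response element in target promoters, and in the response to interferon gamma they bind gamma-activated sites. The induced GTPases protect a cell from within. IRG and GBP proteins gather on the vacuoles of intracellular parasites and bacteria and help to break them, with the IRGM proteins keeping the other IRGs inactive on the cell's own membranes, whereas Mx proteins block the replication of viruses. Most laboratory mouse strains, C57BL/6 among them, carry defective Mx genes, and the GRCm38.p6 gene table lists both Mx1 and Mx2 as transcribed pseudogenes.

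The promoters of the members are shown first, because interferon control of these genes is read at such elements. RefSeq promoters (GRCm38.p6, 250 bases before to 50 after the start of transcription) were available for 6 of the 9 measured members, and all 6 held the core of the response element, which is GAAA, any 2 bases and GAAA again, on either strand. In the table of promoters as a whole it was present in 1131 of 32841, or 3.44%. The 120 bases upstream of the start are given for each, 5′ to 3′ on the strand of the gene, with the core in capitals, where 2 overlapping matches run together in Irgm1 and Gbp3.
Irgm1 (chr11:48871421-48871540, minus strand): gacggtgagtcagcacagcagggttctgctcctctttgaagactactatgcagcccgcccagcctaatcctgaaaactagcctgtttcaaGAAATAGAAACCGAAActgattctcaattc
Irgm2 (chr11:58214857-58214976, plus strand): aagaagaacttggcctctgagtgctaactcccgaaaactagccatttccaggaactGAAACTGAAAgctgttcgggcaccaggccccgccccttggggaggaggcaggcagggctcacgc
Tgtp1 (chr11:48992247-48992366, minus strand): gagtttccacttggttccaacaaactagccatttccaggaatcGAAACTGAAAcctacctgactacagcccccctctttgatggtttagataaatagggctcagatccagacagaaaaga
Gbp2 (chr3:142620543-142620662, plus strand): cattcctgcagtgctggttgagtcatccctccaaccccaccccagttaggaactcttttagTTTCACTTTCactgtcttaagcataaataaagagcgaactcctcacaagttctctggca
Gbp3 (chr3:142559924-142560043, plus strand): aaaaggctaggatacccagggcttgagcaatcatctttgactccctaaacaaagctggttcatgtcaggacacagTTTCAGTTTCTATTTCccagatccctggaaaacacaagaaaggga
Gbp7 (chr3:142530216-142530335, plus strand): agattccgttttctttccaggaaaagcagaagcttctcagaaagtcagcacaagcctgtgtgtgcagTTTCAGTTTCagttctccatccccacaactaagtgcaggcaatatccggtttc

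The first base of the core lay between 24 and 77 bases before the start in these 6 promoters. The 3 IRG genes carry it in the GAAA orientation and the 3 GBP genes in the reverse, TTTC orientation. A gamma-activated site, TTCNNNGAA, which reads the same on both strands and is found in 8.30% of all promoters, was present in 3 of the 6. It preceded the core in Irgm2 (75 bases before the start) and Tgtp1 (88 bases), both with the letters TTCCAGGAA, and Gbp7 held 2 copies, 106 and 87 bases before the start. Gbp3 has a second listed promoter, which held neither. A core also stood in the promoters of Gbp2b (137 bases before the start) and Gbp5 (165 bases), GBP genes that were at background in every group. The promoter of Ifi47, another GTPase family gene below background in every group, held neither a core nor a gamma-activated site. A match of letters is not evidence of binding.

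**Figure D1:**
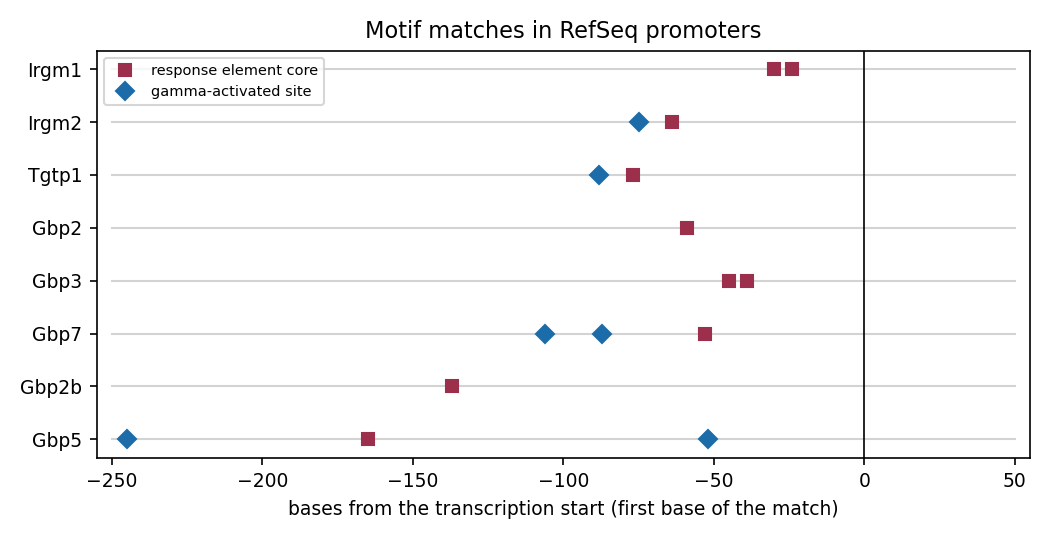
Positions of motif matches in RefSeq promoters of 6 measured members and of the family genes Gbp2b and Gbp5. The horizontal axis is the distance in bases of the first base of a match from the start of transcription, squares mark the core of the response element and diamonds the gamma-activated site, and in the 6 members every square falls between 24 and 77 bases before the start.

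Levels are given as the authors' log2 signal of 1 probe set. A background level of 3.68 was set from 1417 probe sets for odorant and pheromone receptors, which these cells are not known to use, as the value that 95% of them do not exceed. In ESC 7 of the 9 measured members lay above it, in D5 2 of 9 and in D10 1 of 9. A signal under this level sets only an upper limit on the transcript, so a difference that ends at such a level is given also as a minimum, with the lower arrays set to no less than 3.68. The pluripotency markers lay above background in all 3 groups (11 of 11), and of 15 leukocyte markers 4, 3 and 4 did so in ESC, D5 and D10, with group means of Ptprc (CD45) between 2.96 and 3.04 on the log2 scale. The 4 in ESC were Laptm5 (means of 7.67, 7.18 and 6.38 in ESC, D5 and D10), Cd68 (6.61, 6.02 and 5.87), Cd3e (4.64, 4.53 and 4.35) and Itgb2 (3.73, 3.57 and 3.68). The other leukocyte markers lay below background in every group. Of the 15, 1 was lower in D5 (1.50% of all probe sets were) and 2 in D10 (3.33% of all) in limma. In either line 0 were higher (2.36% and 5.32% of all), and the list medians were -0.12 and -0.10. The part of these markers in the results was not tested.

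The regulatory IRGs come first. Irgm1, which guards host membranes and is needed for resistance of mice to several intracellular bacteria, had log2 signals of 8.02, 8.15 and 8.12 in the ESC arrays, 4.47, 4.61 and 4.42 in D5, and 5.09, 4.76 and 5.09 in D10 (replicates 1, 2 and 3 in this order throughout). All arrays of both re-derived lines were far below every ESC array, and still above the background level. The mean was 8.10 ± 0.065 (SD, n = 3) in ESC, 4.50 ± 0.099 (SD, n = 3) in D5, a 12.1-fold difference, and 4.92 ± 0.236 (SD, n = 2) in D10, a 9.02-fold difference. The D5 signal was thus 8.26% and the D10 signal 11.1% of that in ESC.

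Irgm2, a second regulator of the IRGM kind, gave 4.48, 4.78 and 4.54 in ESC, 2.56, 2.68 and 2.58 in D5, and 2.77, 2.72 and 2.71 in D10. The 3 ESC arrays lay above background and all 6 others below it. Means differed by a factor of 3.99 (D5) and 3.67 (D10), and by at least 1.90-fold in both lines when the background level limited the lower side. Irgm2 and Igtp are near neighbours and similar in sequence, and the file's list of transcripts for this probe set is shortened, so that signal from Igtp in it cannot be told apart.

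Of the effector IRGs, which are loaded onto parasite vacuoles, Tgtp1 was above background in ESC and Iigp1 in no group. Tgtp1 had 5.74, 5.93 and 5.87 in ESC, 2.95, 3.40 and 3.41 in D5, and 3.26, 3.61 and 3.51 in D10. Every ESC array was above background and every other array below it, a difference of 6.03-fold (D5) and 5.10-fold (D10), and of at least 4.49-fold in both with the background limit. A second probe set of the gene differed by 3.99-fold in D5 and 3.27-fold in D10, or by at least 2.68-fold in both with the background limit. Tgtp1 has a nearly identical neighbour, Tgtp2, to which either probe set may also respond.

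Iigp1, the best studied effector IRG, gave 2.75, 2.58 and 2.41 in ESC, 2.43, 1.99 and 2.20 in D5, and 2.33, 2.08 and 2.41 in D10. All 9 arrays lay below background and ESC and D5 overlapped, so no fold is given.

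Of the GBPs, Gbp3 gave 5.15, 5.50 and 5.28 in ESC, 3.46, 3.58 and 3.55 in D5, and 3.21, 3.59 and 3.50 in D10. Its ESC arrays stood apart from all others, by 3.43-fold (D5) and 3.57-fold (D10) between means, or at least 3.09-fold in both with the background limit. Gbp7 gave 4.93, 5.27 and 5.16 in ESC, 3.96, 3.33 and 4.01 in D5, and 3.59, 3.56 and 3.97 in D10. The re-derived arrays fell on both sides of the background level, and the differences were 2.55-fold (at least 2.35-fold) in D5 and 2.73-fold (at least 2.62-fold) in D10.

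Gbp2, a lipid-anchored GBP that is recruited to the vacuole of Toxoplasma, gave 4.28, 3.97 and 3.94 in ESC, 3.09, 3.20 and 2.94 in D5, and 3.25, 3.49 and 3.25 in D10. The groups did not overlap, at 1.98-fold (D5) and 1.62-fold (D10) between means, and by at least 1.31-fold in either line with the background limit. The probe set with the accession of Gbp6 gave 4.12, 4.0 and 3.72 in ESC, 3.20, 3.03 and 3.40 in D5, and 3.24, 3.06 and 3.20 in D10. Its means were 1.67-fold (D5) and 1.75-fold (D10) lower than in ESC, or at least 1.20-fold in both with the background limit, and its ESC arrays did not overlap with the others.

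Of the Mx genes, Mx2 gave 4.10, 4.08 and 3.86 in ESC, 2.62, 2.34 and 2.45 in D5, and 2.44, 2.41 and 2.41 in D10. ESC was above background and both lines below it, with 2.92-fold (D5) and 3.03-fold (D10) between means, of which at least 1.26-fold holds with the background limit. Mx1 gave 2.28, 2.61 and 2.24 in ESC, 2.02, 2.10 and 2.18 in D5, and 2.23, 2.19 and 2.23 in D10. These 9 values all lay below background and no fold is given.

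**Figure D2:**
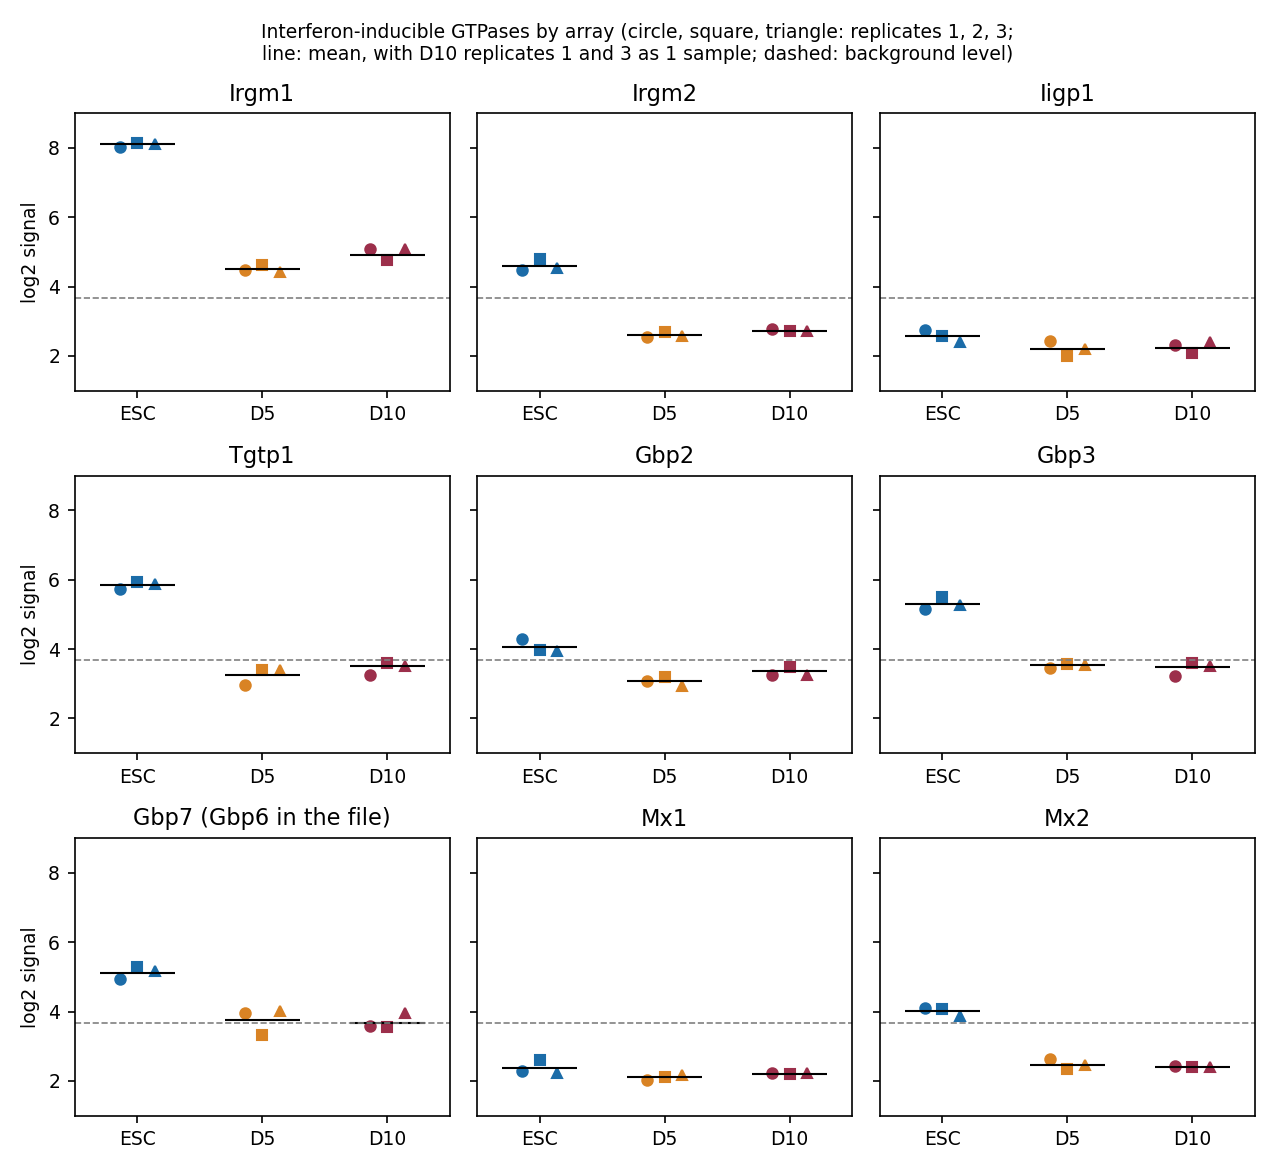
Log2 signal of the 9 measured members on each array, in ESC, D5 and D10 (circle, square and triangle for replicates 1, 2 and 3), with group means as lines and the background level of 3.68 dashed. Irgm1 drops from about 8.10 to 4.50 and 4.92 but stays above the dashed line, Irgm2, Tgtp1, Gbp2, Gbp3 and Mx2 drop below it, and Iigp1 and Mx1 are below it in every group.

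Counted over the members, 7 of 9 were lower in D5 than in ESC past an adjusted p of 0.05 in limma, where 1.50% of all probe sets were, and the same 7 were lower in D10, where 3.33% were. The arrays did not overlap in 8 of 9 members for D5 against ESC (11.0% of all probe sets had every D5 array below every ESC array) and in 9 of 9 for D10 (16.4%). All 3 D10 arrays were used for this count. It includes Iigp1 and Mx1, which lay below background, and Iigp1 read 2.41 in both ESC replicate 3 and D10 replicate 3 after rounding. Both comparisons served to choose the members and share the ESC arrays, so nothing is read from these counts. The median log2 difference of the members was -1.54 in D5 and -1.60 in D10, beside -0.01 and -0.02 over all probe sets. By family, the 7 comprised 3 of 4 IRGs, 3 of 3 GBPs and 1 of 2 Mx genes, and the remaining Iigp1 and Mx1 are those without a level above background in any group.

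The difference between the D10 and D5 lines was not used to choose the members and was tested with limma over all 28853 probe sets. No member passed (0 of 9, against 0.215% of all probe sets in either direction). An unadjusted p under 0.05 was found for 1 of 9, Irgm1, and the share of all probe sets under that rule was not counted. Irgm1 was 1.34-fold higher in D10 than in D5, a log2 difference of 0.42 (SE 0.119, 95% confidence interval 0.15 to 0.70, limma, adjusted p = 0.236, and from 0.0591 to 0.497 over the alternatives), and all 3 D10 arrays lay above all 3 D5 arrays. Gbp2 differed by 0.29 (interval -0.02 to 0.61, adjusted p = 0.552) and Tgtp1 by 0.24 (interval -0.11 to 0.60, adjusted p = 0.688). For the others the estimates ran from -0.10 to 0.12, and the intervals reached at most -0.56 (Gbp7) and 0.39 (Mx1). These intervals give the sizes of difference between the lines that remain compatible with the arrays, and below background a difference in transcript may not show. In 4 of 9 members every D10 array lay above every D5 array (Irgm1, Irgm2, Gbp2 and Mx1), as in 9.87% of all probe sets. All 3 D10 arrays were used for this count. Irgm2, Gbp2 and Mx1 lay below background on every array of both lines, and the nearest arrays of Mx1 read 2.18 and 2.19.

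**Figure D3:**
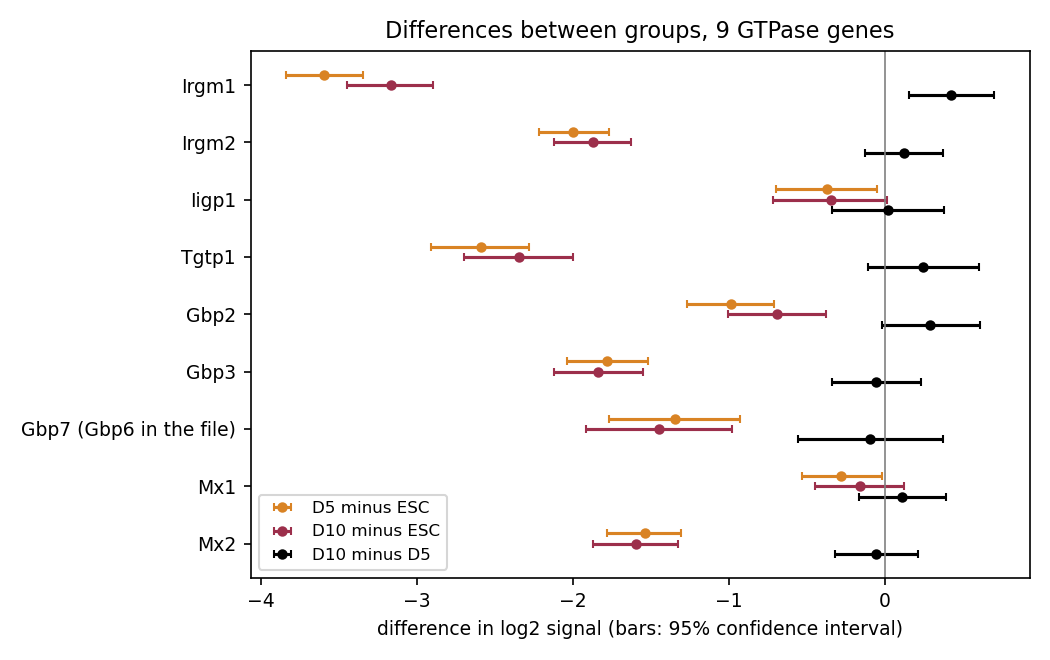
Differences in mean log2 signal between groups for the 9 measured members, with 95% confidence intervals from the limma fit as bars. D5 minus ESC and D10 minus ESC lie close together for each gene, between -3.60 and -0.16, and D10 minus D5 lies between -0.10 and 0.42.

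Among other genes of the GTPase families few passed. Of 33 listed names, 24 had a probe set that was no member, and 14 of these lay above background in some group. In D5 1 rose (2.36% of all probe sets rose), 1 fell (1.50% of all fell) and 22 did not pass. The same counts held in D10 (5.32% of all rose and 3.33% fell), with list medians of -0.17 in D5 and -0.08 in D10. Gbp4, another GBP, fell by 0.79 in D5 (limma, adjusted p = 0.0486) and by 1.08 in D10 (adjusted p = 0.0124) on the log2 scale, or by at least 1.65-fold and 1.72-fold with the background limit. Its D5 call was lost in 9 of 17 other fits, with adjusted p up to 0.142, and its D10 call without D10 replicate 2 (adjusted p = 0.108) and with only the groups compared (adjusted p = 0.0508). Dnm1, a neuronal dynamin of endocytosis that interferon is not known to induce, rose by 0.48 (adjusted p = 0.0157) and 0.53 (adjusted p = 0.00805), and these calls were lost without some single arrays, with adjusted p up to 0.0658 in D5 and 0.0589 in D10.

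Among the inducible relatives, Gbp9 had 4.19, 3.53 and 3.56 as group means in ESC, D5 and D10 and did not pass (limma, adjusted p = 0.166 and 0.179). Ifi47, Gbp2b, Gbp5, Gbp11 and the IRG gene Gm12250 lay below background in all groups. Irgq (4.16, 4.34 and 4.09) and Irgc1 (4.27, 4.04 and 4.09), IRG-like genes not known as interferon-inducible, did not pass either. The constitutive relatives of the dynamin superfamily, with Mfn1 (-0.24 in D5), Mfn2 (0.12), Opa1 (-0.09), Atl2 (0.03) and Dnm2 (-0.12), which shape mitochondria, the endoplasmic reticulum and endocytic vesicles, did not pass in D5 or D10.

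Receptors and kinases of the interferon pathway are described next. The receptor chain Ifnar1 for type I interferon had means of 6.54, 6.58 and 6.52 in ESC, D5 and D10 (limma, adjusted p = 0.880 and 0.953), and its partner Ifnar2 had 5.18, 5.60 and 5.85 (adjusted p = 0.150 and 0.0288). The interferon gamma receptor chain Ifngr2 rose in both lines, by 0.52 (adjusted p = 0.0335) and 0.84 (adjusted p = 0.00340) on the log2 scale. Ifngr1 differed by 0.43 (adjusted p = 0.157) and 0.62 (adjusted p = 0.0440). The kinase Jak1 rose by 0.60 (adjusted p = 0.00847) and 0.71 (adjusted p = 0.00292), and Jak2 by 1.04 in D10 (adjusted p = 0.0186). Of these, the calls of Ifnar2, Ifngr1, Jak2 and, in D5, Ifngr2 were lost in some fits, with adjusted p up to 0.0951, 0.122, 0.0617 and 0.111.

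Some of the transcription factors downstream fell. Stat2 gave 6.74, 7.02 and 7.09 in ESC, 5.33, 5.50 and 5.15 in D5, and 5.13, 5.19 and 5.0 in D10, and fell by 1.62 (limma, adjusted p = 0.000457) and 1.82 (adjusted p = 0.000180) on the log2 scale. Its ESC arrays were clear of all others. Irf9, its DNA-binding partner, fell by 1.18 (adjusted p = 0.00276) and 1.37 (adjusted p = 0.000977). Irf7, an amplifier of type I interferon production, fell by 1.82 and 1.68, to below background and thus by at least 2.82-fold in both lines, and Irf1, which drives many GBP genes, by 0.87 and 0.62, the latter call being lost without D10 replicate 2 (adjusted p = 0.0768).

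Of the 26 receptor, STAT and IRF genes as a whole, 2 rose, 6 fell and 18 did not pass in D5 (2.36% of all probe sets rose and 1.50% fell). In D10 5 rose, 6 fell and 15 did not pass (5.32% of all rose and 3.33% fell), the same 6 falling in both. Among them the phosphatase gene Ptpn6 fell by 0.75 and 0.85, and its D5 call was lost without some single arrays (adjusted p up to 0.0526). Stat3 (0.04 and -0.04), Irf2 (0.21 and 0.37), Irf3 (0.02 and -0.05), Irf5 (0.16 and 0.57), Irf8 (-0.08 and -0.22), the kinase gene Tyk2 (-0.16 and -0.24) and the feedback inhibitor Socs1 (-0.18 and -0.01) did not pass. Interferon genes themselves gave no call. Of 21 interferon genes with a probe set, looked at after the other results, 0 passed in any comparison in limma. Between D10 and D5, 0.215% of all probe sets passed, and the shares against ESC are those given above. At an unadjusted p under 0.05 there were 1 (D5 against ESC), 3 (D10 against ESC) and 1 (D10 against D5). The share of all probe sets under that rule was not counted, so nothing is read from these numbers. On average, 9 of the 21 lay above background. Differences ran from -0.46 to 0.42 in D5 and from -0.74 to 0.24 in D10 on the log2 scale. Ifnb1 differed by 0.20 in D5 and 0.10 in D10, and Ifng by 0.02 and -0.30. Ifna14, above background in ESC, differed by -0.46 (limma, adjusted p = 0.405) and -0.73 (adjusted p = 0.158). Ifnab, with means below background, differed by -0.74 in D10 (adjusted p = 0.0894). Both Ifna14 and Ifnab passed in some of the other fits.

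Many other interferon-induced genes also fell. Of 40 listed, 25 fell, 0 rose and 15 did not pass in D5 (median -0.95), where 1.50% of all probe sets fell and 2.36% rose. In D10 22 fell, 0 rose and 18 did not pass (median -0.73), where 3.33% of all fell and 5.32% rose. All 22 had also fallen in D5. Oasl2 and Oas1g of the oligoadenylate synthetase family stayed above background and were lower by 5.52-fold and 5.43-fold in D5, and by 4.70-fold and 5.48-fold in D10. The helicase-like Ddx60 (log2 difference -3.17 in D5 and -3.02 in D10), the chaperone-like Rtp4 (-2.95 and -2.92) and the ISG15 protease Usp18 (-2.43 and -2.52) ended below background. With the background limit they were lower by at least 4.44-fold, 5.19-fold and 3.91-fold in both lines, so that these 5 genes have no settled order. Among those that did not pass were Isg15 (means of 3.20, 2.87 and 2.81) and Ifit3 (2.52, 2.31 and 2.30), both below background in all groups. This list was drawn up with earlier results known, and its count adds no independent weight to that of the members.

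IRG and GBP proteins find their target membranes with the help of the ATG8 conjugation system, which attaches small ubiquitin-like proteins to membranes. Atg3 (0.14 in D5 and 0.13 in D10), Atg5 (-0.14 and -0.10), Atg7 (0.07 and 0.11) and Atg16l1 (-0.01 and -0.04), which carry out that conjugation, did not pass in either line. Of 23 measured genes for conjugation and vacuole recognition, 1 rose and 2 fell in D5 (2.36% and 1.50% of all probe sets). In D10 2 rose and the same number fell (5.32% and 3.33% of all). Both falls were ubiquitin ligases that are themselves interferon-inducible, Trim21 by 1.03 (limma, adjusted p = 0.0117) and 1.46 (adjusted p = 0.00173; at least 2.27-fold, since D10 ended below background), and Rnf213 by 1.28 (adjusted p = 0.00447) and 1.07 (adjusted p = 0.00841). The ATG8 family gene Gabarap rose by 0.50 (adjusted p = 0.0182) and 0.77 (adjusted p = 0.00191), and Lgals3, a sensor of broken vacuoles, rose by 0.42 in D10 (adjusted p = 0.0205). Leaving out 1 array removed the calls of Trim21 and Gabarap in D5 (adjusted p up to 0.0523 and 0.0797), and of Rnf213 and Lgals3 in D10 (up to 0.0783 and 0.101).

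**Figure D4:**
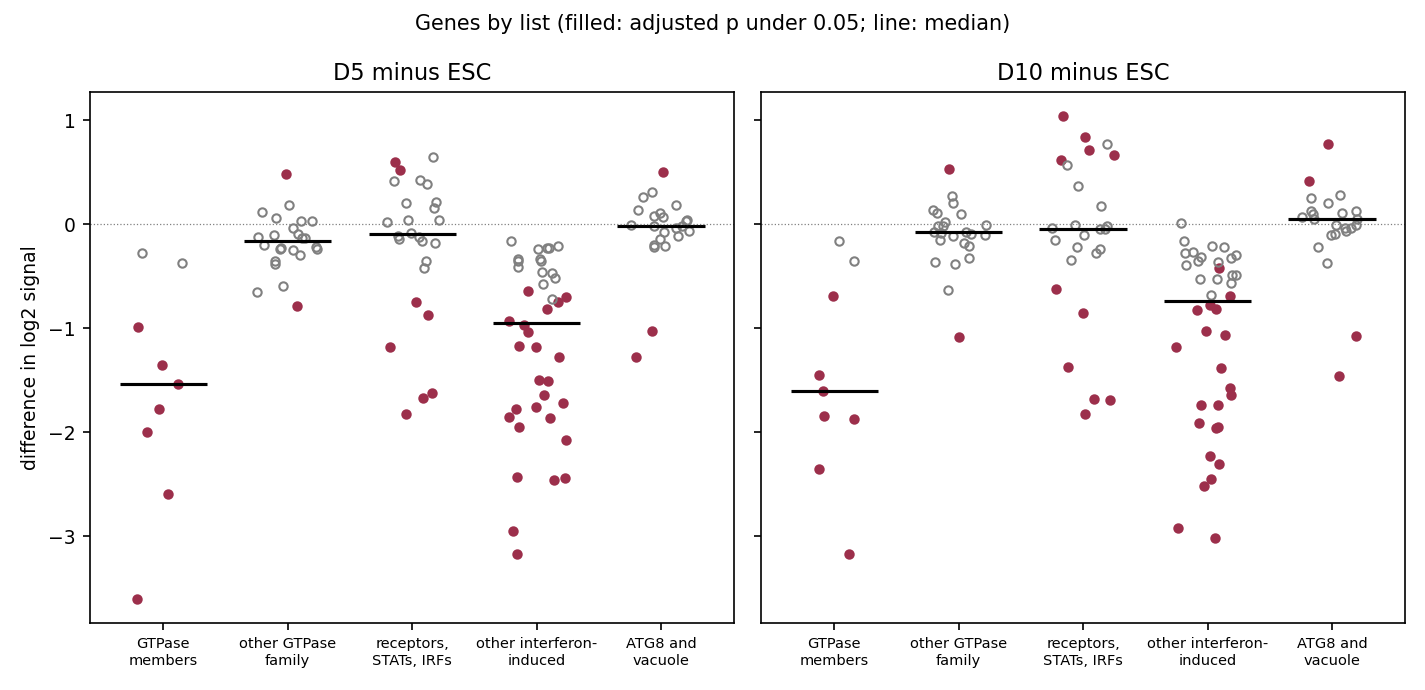
Differences in log2 signal against ESC for the 9 members and the genes of 4 further lists, in D5 (left) and D10 (right), 1 point per gene, filled where the adjusted p was under 0.05, with the median as a line. The members (medians -1.54 and -1.60) and other interferon-induced genes (-0.95 and -0.73) lie low, the other lists have medians between -0.17 and 0.05, and the receptor list holds filled points on both sides of 0.

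Among the genes whose pattern over the 9 arrays was most like the mean of the members, by Pearson correlation among 439 genes with a range of at least 1 between group means, were Rtp4 (r = 0.996), Oas1g (0.9945), Oasl2 (0.9929), the nucleic acid sensor Zbp1 (0.9925), Ddx60 (0.992), Parp9 (0.9919) and Parp14 (0.9871). Parp9 and Parp14 are ADP-ribosyltransferase family members. Of the first 8 genes by correlation, these 7 are the ones that stand on the list of interferon-induced genes. That list was drawn up with earlier results of these arrays known, so their place on it adds no support. The mean profile of the members was 0.97 to 1.13 above its average on the ESC arrays and -0.61 to -0.40 on the other 6. Because the contrast of ESC with the other arrays dominates every such profile and arrays of a group share their line, these correlations describe likeness and carry no test.

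**Figure D5:**
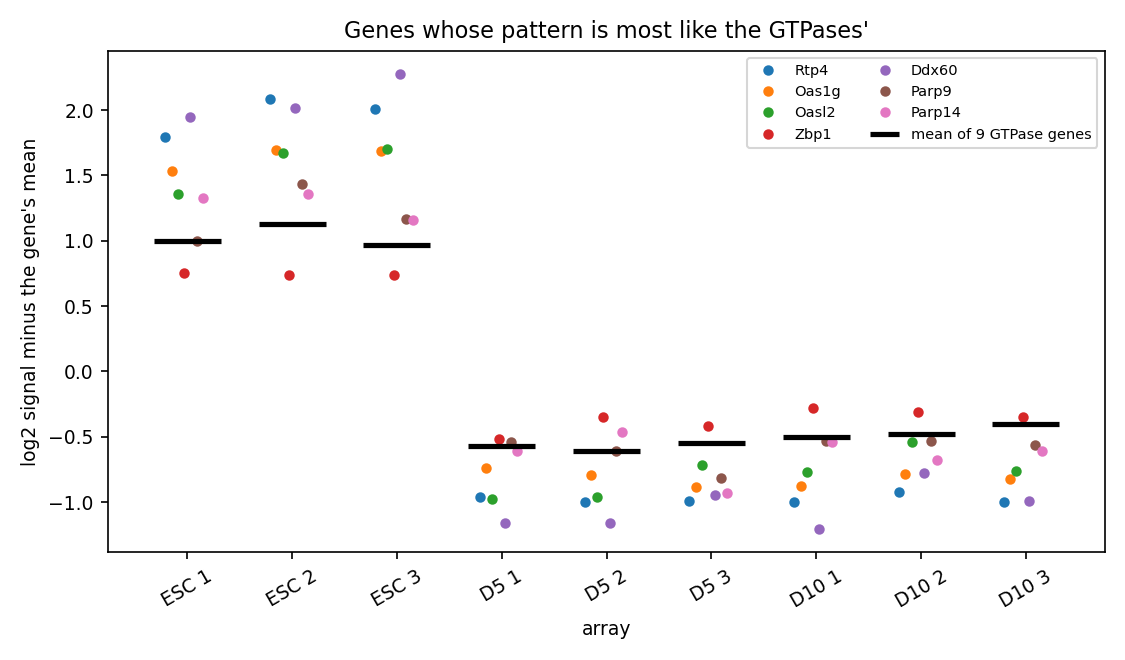
Log2 signal minus the gene's own mean on each of the 9 arrays for 7 interferon-induced genes among those most like the members (coloured points) and the mean of the 9 members (black bars). On the 3 ESC arrays the bars stand at 0.97 to 1.13 and on the 6 D5 and D10 arrays at -0.61 to -0.40, with the coloured points on the same side.

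Members varied together to different degrees. Among the 7 members above background in ESC, Pearson correlations over the 9 arrays ran from 0.802 (Gbp2 with Gbp7) to 0.994 (Irgm1 with Irgm2), again mostly the contrast between ESC and the rest. With Iigp1 or Mx1, both below background, they ran from 0.51 to 0.784.

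The members lie in clusters with genes of other kinds. By RefSeq gene order, up to 4 measured genes on each side of each member that belong to none of the lists or receptor families gave 41 neighbours. Of these, 2 rose and 1 fell in D5 (2.36% and 1.50% of all probe sets), and 5 rose and 1 fell in D10 (5.32% and 3.33%). The median differences were 0.00 and -0.07. None of the 16 neighbours on chromosome 11, around Irgm1, Tgtp1 and Irgm2, passed in either line. The same held for the 9 on chromosome 16, around Mx1 and Mx2. Of the 8 on chromosome 18, around Iigp1, 0 passed in D5 and 1 rose in D10, Dctn4 (0.53, limma, adjusted p = 0.00903). Of the 8 on chromosome 3, next to the GBP cluster, 2 rose and 1 fell in D5, and 4 rose and 1 fell in D10. Kyat3, an aminotransferase gene, fell by 0.61 (limma, adjusted p = 0.0265) and 0.94 (adjusted p = 0.00314). Lmo4, a transcription cofactor, rose by 0.72 (adjusted p = 0.0157) and 0.99 (adjusted p = 0.00275), and Pdlim5 by 0.53 (adjusted p = 0.0239) and 0.91 (adjusted p = 0.0016). Unc5c (0.69, adjusted p = 0.0283) and Bmpr1b (0.44, adjusted p = 0.0461) passed in D10 only. The D5 calls were lost without some single arrays, with adjusted p up to 0.107 for Kyat3, 0.0679 for Lmo4 and 0.0993 for Pdlim5. In D10 the call of Bmpr1b held in only 4 of 17 other fits. It was lost, among others, with array weights (limma, adjusted p = 0.0613) and without ESC replicate 2 (adjusted p = 0.119) or ESC replicate 3 (adjusted p = 0.101). The D10 call of Unc5c held in 13 of 17. It was lost, among others, with only the groups compared (adjusted p = 0.0862) and without ESC replicate 3 (adjusted p = 0.0624).

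By promoter content, 4.91% of the 632 measured genes with a response element core fell in D5, against 1.67% of the 15337 without, and 7.44% against 4.01% fell in D10. The shares that rose were 3.64% against 2.86% in D5 and 7.28% against 6.39% in D10. For the gamma-activated site, 2.22% of 1439 genes with it fell in D5 against 1.75% of 14530 without, and 4.93% against 4.07% fell in D10. These shares include the members and are given without a test.

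The groups also differed in markers of cell types. Fibroblast and stroma markers, which feeder cells express, were higher in the re-derived lines, with 11 of 16 up in D5 and 15 of 16 up in D10 in limma and none down. Of all probe sets, 2.36% rose in D5 and 5.32% in D10. Between D10 and D5, 4 of the 16 were higher in D10 and 0 lower (median log2 difference 0.63), where 0.215% of all probe sets passed in either direction. In that comparison 0 of 9 members passed, with a median of 0.11. The summed linear intensity of the 16 was 1837 to 2202 in ESC, 3509 to 3880 in D5 and 5429 to 5589 in D10, and all 16 lay above background in every group. The summed intensity of the 11 pluripotency markers was 11658 to 12270 in ESC, 8987 to 9586 in D5 and 8653 to 8874 in D10. In limma 6 of these 11 were lower in D5 and 5 in D10, and 0 were higher, with median log2 differences of -0.35 and -0.31. Of all probe sets, 1.50% were lower in D5 and 3.33% in D10. For the 15 leukocyte markers the sums were 423 to 446.3, 329 to 348.4 and 261.5 to 272.3, with 1 marker lower in D5 and 2 in D10. In such bulk samples, fewer cells of a type and less RNA per cell cannot be told apart, and the part of the feeder share in the GTPase levels was not tested.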

How the data were processed

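Total RNA of 9 mouse cell samples was labelled by an Affymetrix whole-transcript protocol, per the labels' protocols, and measured on arrays. MAS5 is named, without a version, per the submitters' processing notes. How the authors normalized between arrays was not given in the sources used here. Deposited log2 values of the large table run from 0.70 to 13.82 with array medians of 4.45 to 4.53. They equal the log2 of the linear intensity in the authors' deposited short table of 461 probe sets to within 2e-05, and the second deposited table holds identical values. Arrays have no read depth, and their small number limits the precision.

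Probe sets were named through the GRCm38.p6 gene table: 18873 had a matching accession, 2487 a symbol and 1740 a synonym; 2023 kept the file's name and 3730 had none. All 28853 were fitted with limma 3.58.1 in R 4.3.3 (lmFit, eBayes) on 8 samples with 1 mean per group, with 5 residual degrees of freedom and a prior of 3.56. The threshold was an adjusted p of 0.05 (Benjamini-Hochberg, across the 28853 of each comparison, two-sided). The fit was tested on simulated data. Members and lists were chosen with earlier results of these data known, and the interferon genes, the neighbours and the Gbp6 probe set by accession were added later. Named were all members, the lists' genes past the threshold with the largest changes, receptors, STAT2 and IRF9, the most alike genes, and, chosen after their values were seen, the neighbours and examples of genes that did not pass.

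The planned protein features were not used here, and 1 gene among the listed and most alike genes is not reported here. Alternatives were 9 arrays counted separately, quantile normalization, median centring, a floor that drops the dimmest 30%, robust estimation with an intensity trend, only the groups compared, array weights, a replicate block, another probe set per gene and leaving out each array.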

Additional observations from a re-analysis of the deposited data

How the results depend on the processing

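No support is drawn from the members' counts against ESC, which the choice of members used. The counts of 7 members lower in D5 and 7 in D10 than in ESC held with 9 arrays counted separately, quantile normalization, median centring, an intensity trend, array weights and without any 1 array. They were 5 and 5 without the dimmest 30% of probe sets, which removes Irgm2 and Mx2 from testing, and the D10 count was 6 with only the groups compared. The count of 0 members between D10 and D5 held in all 19 alternatives. Of 501 other values of single members, 495 moved by less than the spread between replicates or kept their call, and 6 moved. These 6 all came from choosing another probe set for Tgtp1 or Gbp6 (Tgtp1 -1.996 and -1.71, Gbp6 -0.74 and -0.81). Many of the 495 could not move by design. The D5 minus ESC difference is the same whichever D10 array is left out, and most members have no other probe set. No support is drawn from this count. Equal replicate numbers did not pair the samples: the correlation of deviations from group means ran from -0.379 to 0.298 in 9 same-numbered pairs, 2 of them above 0.1, and the own number matched best in 4 of 18 cases. With the replicate block the members' counts were 7, 7 and 0.

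The other GTPase genes changed in D5 numbered 1 in place of 2 with quantile normalization and with only the groups compared, and 0 to 2 without 1 array, with 0 without ESC replicate 1, D5 replicate 1 or D5 replicate 3. In D10 they numbered 1 with only the groups compared and 0 to 2 without 1 array, with 0 without D10 replicate 2. The ATG8 and vacuole genes changed numbered 1 to 3 without 1 array in D5, with 1 without ESC replicate 2, and 2 to 4 in D10, with 2 without D10 replicate 2. Between D10 and D5 they numbered 1 in place of 0 with 9 arrays counted separately, without the dimmest 30% and with an intensity trend, the gene being Lgals3. The causes were not tested. Signals below background limit what a further fall can show.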
